A study of Homo sapiens with 6 samples.

Results

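The 5 subunits of the transcription factor NF-kB (NFKB1, NFKB2, REL, RELA and RELB) and 5 genes known as its feedback targets (NFKBIA, TNFAIP3, BIRC3, TNF and TRAF1) were followed in NB4 cells. The genes were picked by symbol from the 23368 gene symbols listed for each library, and all 10 had enough reads to be tested. NB4 is a human cell line established from acute promyelocytic leukemia, with the PML-RARA fusion, and maltonis is a synthetic molecule derived from maltol that belongs to the hydroxypyrones. RNA was sequenced from cells left without treatment and from cells exposed to 10 µM maltonis, with 3 libraries per group. The label of each library gives 24 h, and all libraries come from the same line, which stands for 1 leukemia only. The comparison asks how the transcripts of this pathway stood after exposure to the compound.

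NF-kB proteins act as dimers. RELA, REL and RELB carry a transactivation domain, whereas NFKB1 and NFKB2 encode precursors that are processed to the DNA-binding partners. In resting cells the dimers are held in the cytoplasm by inhibitor proteins of the IkB family, of which NFKBIA is the best known, and signals from receptors of the TNF, interleukin-1 and Toll-like families release them through the IkB kinases. A second, slower route runs through the processing of NFKB2 and leads mainly to RELB dimers. Once in the nucleus, NF-kB switches on inhibitors of its own pathway, so that NFKBIA and TNFAIP3, a ubiquitin-editing enzyme, are both targets and brakes, while TNF, a cytokine, feeds the signal forward.

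Promoter sequences from RefSeq (GRCh38.p14) are shown for members that hold the letters of the kB consensus, the 10-base motif bound by NF-kB, so that a reader can see which of them carry it next to the start site. The windows run from 250 bases before to 50 bases after a start site, and both strands were searched. The table held windows for 9 of the 10 members (all except RELB), and 6 of these had a match in at least 1 window: NFKB1, NFKB2, REL, NFKBIA, TNFAIP3 and BIRC3. RELA (gene at chr11:65653596-65663094, minus strand, GENCODE, GRCh38), TNF (chr6:31575567-31578336, plus strand) and TRAF1 (chr9:120902393-120929173, minus strand) had none in these windows. Each stretch reads 5′ to 3′ on the strand of the gene, and capitals mark the bases covered by a match, overlapping matches included. The stretches lie at chr4:102501295-102501334 on the plus strand (NFKB1), chr10:102394456-102394524 on the plus strand (NFKB2), chr2:60881512-60881552 on the plus strand (REL), chr14:35404806-35404845 on the minus strand (NFKBIA), chr6:137867177-137867228 on the plus strand (TNFAIP3) and chr11:102317270-102317373 on the plus strand (BIRC3).
NFKB1: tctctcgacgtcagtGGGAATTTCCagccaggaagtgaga
NFKB2: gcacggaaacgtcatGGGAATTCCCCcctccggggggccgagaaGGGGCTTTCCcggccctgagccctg
REL: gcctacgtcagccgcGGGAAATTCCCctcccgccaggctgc
NFKBIA: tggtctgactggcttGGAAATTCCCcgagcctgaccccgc
TNFAIP3: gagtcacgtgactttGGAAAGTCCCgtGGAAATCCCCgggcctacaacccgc
BIRC3: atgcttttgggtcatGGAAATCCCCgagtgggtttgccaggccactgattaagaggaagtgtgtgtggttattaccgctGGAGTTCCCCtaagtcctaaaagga

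With positions counted from the start site, negative before it, the match in NFKB1 begins at −49 and that in NFKBIA at −81. TNFAIP3 holds 2 matches close together, at −67 and −55, and BIRC3 holds 2 further away, at −199 and −135. In NFKB2 and REL, overlapping matches begin at adjacent bases, −107 and −106 in NFKB2 and −47 and −46 in REL. NFKB2 has a further match at −78, and another of its start sites has matches at −176 and −21. Of all 35116 windows in the table, 5.91% held a match, beside 7 of the 15 windows of the members. Per gene, 8.94% of the tested genes with a window had a match, beside 6 of the 9 members. Members with a match changed in both directions, as the values below show. Among the 9129 tested genes with a window, the 816 with a match had a median log2 fold change of −0.01 and the 8313 without had one of −0.02. A match in these letters is a description of the sequence and not a measurement of binding.

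The libraries held between 18492154 and 38205483 counts, and a floor of 3 counts equals between 0.0785 and 0.162 CPM of these totals. All other CPM (counts relative to library size) use TMM-scaled library sizes. Such floors reflect counting error alone. The first replicate of each group carries one code in its file name and replicates 2 and 3 another, and the meaning of the code is not given, so changes are also shown within each code. Of 11 promyelocyte markers, all tested, 4 were higher with maltonis (ELANE, KIT, CTSG and AZU1). Another 6 were lower (MPO, MYB, CEBPA, CEBPE, SPI1 and CD33), with a log2 fold change of −1.64 for MYB. Their summed level, 14620 to 17100 CPM in not treated and 8950 to 9447 CPM in maltonis-treated cells, was mostly that of the myeloperoxidase gene MPO, which fell with a log2 fold change of −0.98. ELANE, the gene of neutrophil elastase and a defining marker, rose from 3, 6 and 2 counts to 406, 565 and 409, and CTSG, the gene of cathepsin G, rose by 2.34 on the log2 scale. Among 8 markers of monocytes and macrophages, MRC1, CD163, FCGR3A and VCAN had at most 3 counts in every library. The summed level of the 8 was 33.1 to 35.1 CPM without and 23.3 to 27.6 CPM with treatment. Of 12 markers of other blood lineages, CD3E, MS4A1, HBB, ALAS2 and PF4 were among those with at most 3 counts in every library, and the summed level was 88.2 to 99.7 CPM without and 51.4 to 54.1 CPM with treatment. That sum was mostly CD3D, a T cell receptor component, which fell from 43.7 to 15.3 CPM, NCAM1, a marker of natural killer cells, which fell from 29.2 to 5.93 CPM, and ITGA2B, a platelet integrin, which rose from 19.4 to 30.04 CPM. The part of these shifts in the changes below was not tested. In bulk RNA, fewer cells with a transcript and less transcript per cell cannot be told apart.

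Most subunits were higher and most targets lower in maltonis-treated NB4 cells. The names subunit and target come from the choice of genes and do not exclude each other. NFKB1, NFKB2 and REL also hold a kB match, and whether they are themselves targets in these cells was not tested. REL, NFKB2, RELA and RELB were higher and NFKB1 was lower, while TNF, TRAF1, TNFAIP3 and NFKBIA were lower and BIRC3 was not past the threshold. TNF showed the largest change of the members, a 6.21-fold decrease. With a false discovery rate (FDR) under 0.01 in edgeR’s quasi-likelihood test over all 13209 genes tested, 4 members were higher and 5 were lower. Over all genes 31.9% were higher and 32.1% lower, so most of the tested genes moved, and a call by itself does not set these genes apart. With TMM scaling, all 10 members had groups whose libraries did not overlap, as did 76.6% of the genes tested. Relative to total counts, the groups of NFKB1 and BIRC3 overlapped. A change of over 2.5-fold at that FDR was found for 3 members (TNF, TRAF1 and TNFAIP3), all lower, against 20.3% of all genes in either direction. When an RPKM (read counts scaled for exon length and library size) above 10 in the higher group was also required, after the criteria of the study’s methods, TNF and TNFAIP3 remained, against 4.73% of all genes. That share is not the study’s own count: the exon lengths may differ from those it used, and a gene without a length could not pass. The median log2 fold change was 0.51 for the subunits and −1.38 for the targets, beside 0.01 for all genes.

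**Figure D1:**
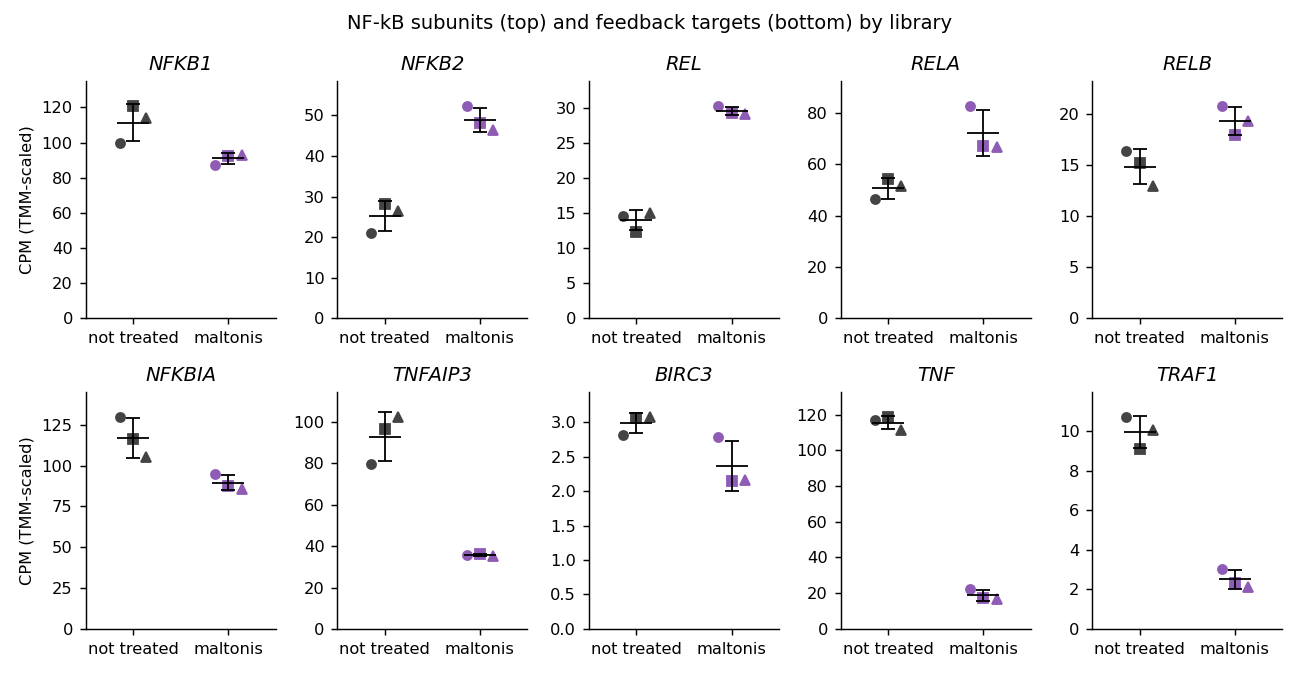
TMM-scaled CPM (vertical axes from 0, each with its own range) of the 5 subunits in the top row and the 5 feedback targets in the bottom row, in not treated (dark) and maltonis-treated (violet) cells. Circles, squares and triangles are replicates 1, 2 and 3, and bars give the mean ± SD of 3 libraries. TNF drops from between 111 and 119 CPM to between 16.9 and 22.2 CPM, whereas the BIRC3 library of maltonis replicate 1 lies just under the lowest not treated library.

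REL encodes c-Rel, a subunit prominent in blood cells. Replicates 1, 2 and 3 held 14.5, 12.4 and 15.02 CPM in not treated cells, against 30.2, 29.3 and 29.2 CPM in maltonis-treated cells. Every treated library was thus higher than every untreated one, and the treated libraries hardly differed among themselves. The log2 fold change of REL was 1.08 (standard error 0.0900, edgeR adjusted p = 7.55e-06), the highest of the subunits. Replicate 1 alone gave a log2 difference of 1.05 and replicates 2 and 3 gave 1.10.

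NFKB2, the precursor of the slower route, had 21.1, 28.2 and 26.4 CPM in not treated replicates 1, 2 and 3, and 52.2, 48.1 and 46.3 CPM in the treated ones. Replicate 1 was the lowest library of its group without treatment and the highest with it. Its log2 fold change was 0.94 (standard error 0.110, edgeR adjusted p = 6.11e-05), and the log2 difference was 1.305 in replicate 1 against 0.79 in replicates 2 and 3. RELB, the usual partner of NFKB2, was measured at 16.4, 15.2 and 13.0 CPM in untreated and 20.8, 17.9 and 19.3 CPM in treated cells. The groups of RELB did not overlap, but the gap between 16.4 and 17.9 CPM was smaller than the distance from the lowest to the highest library of either group. The log2 fold change of RELB was 0.38 (standard error 0.106, edgeR adjusted p = 0.00996), just under the threshold. It was no longer past the threshold when any library other than not treated replicate 1 was left out, with log2 fold changes between 0.28 and 0.41 and edgeR adjusted p-values between 0.0157 and 0.0352, and over all alternatives the adjusted p ranged from 0.00137 to 0.0352.

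RELA is the p65 subunit and the main activator of the classical route. Untreated libraries had 46.3, 54.3 and 51.5 CPM of RELA, and treated ones 82.6, 67.2 and 66.7 CPM, with no overlap. This gave a log2 fold change of 0.51 (standard error 0.101, edgeR adjusted p = 0.00166). Replicate 1 moved most, with a log2 difference of 0.83, whereas replicates 2 and 3 gave 0.34. When maltonis replicate 1 was left out, the log2 fold change of RELA was 0.38 (edgeR adjusted p = 0.00627, the highest over all alternatives, from 2.98e-05), still past the threshold.

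NFKB1, the precursor of the p50 subunit and partner of RELA, was the subunit that fell. Its level was 99.8, 120.6 and 113.8 CPM in untreated and 87.4, 92.3 and 93.2 CPM in treated cells, so the groups were close but did not overlap. The log2 fold change was −0.29 (standard error 0.0780, edgeR adjusted p = 0.00813), with log2 differences of −0.19 in replicate 1 and −0.34 in replicates 2 and 3. The call of NFKB1 was lost when any library other than not treated replicate 1 was left out (edgeR adjusted p between 0.0203 and 0.0360) and when counts were scaled by their totals, where the log2 fold change was −0.17 (edgeR adjusted p = 0.0588). Over all alternatives its adjusted p ranged from 0.000221 to 0.0588, and its direction did not change in any of them.

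TNF, an inflammatory cytokine and itself an inducer of NF-kB, was found at 117, 119 and 111 CPM in not treated cells. In the presence of maltonis it was found at 22.2, 17.1 and 16.9 CPM. The difference was far larger than the spread of the replicates, with a log2 fold change of −2.63 (standard error 0.107, edgeR adjusted p = 1.55e-07), which left 16.1% of the untreated level. In size this change exceeded that of 94.8% of all genes tested. The log2 difference was −2.40 in replicate 1 and −2.75 in replicates 2 and 3.

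TRAF1, an adaptor of TNF receptors that binds the cIAP ligases, reached 10.7, 9.11 and 10.1 CPM in untreated but 3.05, 2.33 and 2.13 CPM in treated libraries. Both groups were tight relative to the gap between them. Its log2 fold change was −2.01 (standard error 0.147, edgeR adjusted p = 3.46e-06), with −1.79 in replicate 1 and −2.07 in replicates 2 and 3. TNFAIP3, also named A20, reached 79.6, 96.9 and 102 CPM in untreated but 35.7, 36.3 and 35.1 CPM in treated libraries. The treated libraries of TNFAIP3 lay closer together (SD 0.628 CPM) than the untreated ones (SD 11.9 CPM), and the log2 fold change was −1.38 (standard error 0.0956, edgeR adjusted p = 2.48e-06). It lies close to the 2.5-fold criterion, a log2 change of 1.32 in size, and was −1.32 without not treated replicate 3, −1.26 with scaling by total counts and −1.296 with upper quartile scaling, where it no longer met it. Replicate 1 gave −1.16 and replicates 2 and 3 gave −1.48.

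NFKBIA, the IkBα inhibitor, had the smallest change among the targets that passed the threshold. The 3 untreated libraries had 129.7, 116.5 and 105.3 CPM of NFKBIA, and the treated ones 94.9, 87.7 and 86.0 CPM. The groups did not overlap, with a log2 fold change of −0.39 (standard error 0.0846, edgeR adjusted p = 0.00281). The call of NFKBIA was lost without not treated replicate 2 (edgeR adjusted p = 0.0102) and with scaling by total counts (log2 fold change −0.27, edgeR adjusted p = 0.0206), within a range from 7.33e-05 to 0.0206 over all alternatives. BIRC3, which encodes the ubiquitin ligase cIAP2, had 53, 111 and 102 counts without treatment and 54, 72 and 61 with maltonis. These correspond to 2.82, 3.06 and 3.08 CPM and to 2.79, 2.15 and 2.17 CPM. Its log2 fold change was −0.37 (95% interval −0.71 to −0.02, edgeR unadjusted p = 0.0383 and adjusted p = 0.0516), so it was not past the threshold. Replicate 1 gave a log2 difference of −0.02 and replicates 2 and 3 one of −0.50.

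**Figure D2:**
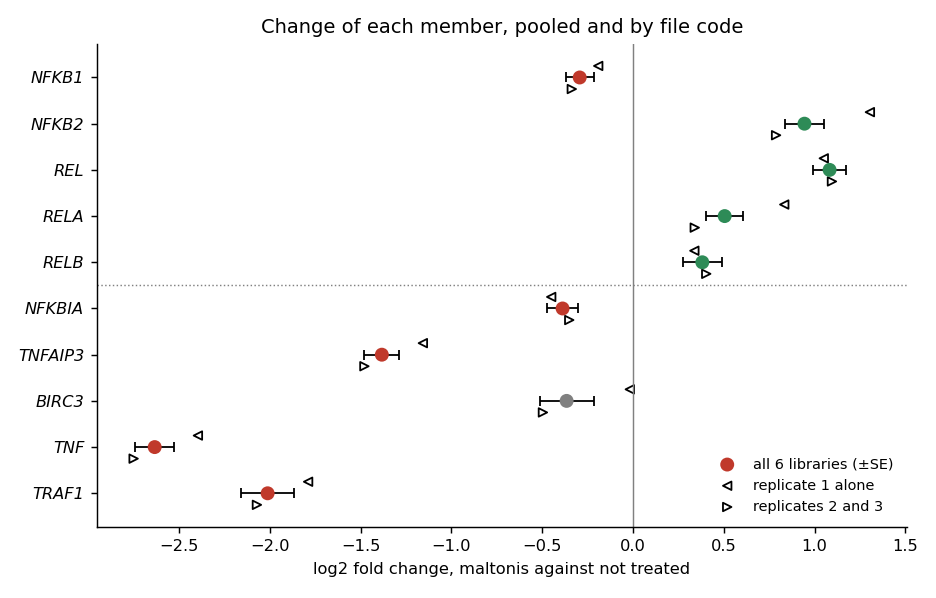
Log2 fold change of each member, maltonis against not treated (horizontal axis), from edgeR over all 6 libraries with its standard error (filled circles, green where higher and red where lower at an FDR under 0.01, grey where neither). Open triangles give the log2 difference in replicate 1 (pointing left) and in replicates 2 and 3 (pointing right), which share a code in their file names; both codes agree in sign for all 10 members, and BIRC3 is near 0 in replicate 1.

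To compare members with each other, counts were divided by the summed exon length of each gene. In not treated cells TNF had the highest level, 69.0 ± 2.33 RPKM (SD, n = 3), next to NFKBIA with 49.4 ± 5.16 RPKM. TNFAIP3 (18.4 ± 2.35 RPKM) and NFKB1 (17.8 ± 1.70 RPKM) overlapped over the libraries. RELA followed with 9.28 ± 0.736 RPKM, and NFKB2 (5.63 ± 0.827 RPKM) and RELB (4.90 ± 0.569 RPKM) again overlapped. TRAF1, REL and BIRC3 were low, with 1.55, 1.06 and 0.397 RPKM, and were separated from one another in all libraries.

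After maltonis NFKBIA came first with 37.7 ± 2 RPKM (SD, n = 3), above all other members. NFKB1 (14.5 RPKM), RELA (13.2 RPKM), TNF (11.2 RPKM) and NFKB2 (10.9 RPKM) then formed a series in which each overlapped the next. TNFAIP3 followed with 7.07 RPKM, RELB with 6.37 RPKM and REL with 2.24 RPKM, each apart from its neighbours, while TRAF1 (0.388 RPKM) and BIRC3 (0.315 RPKM) overlapped. REL and TRAF1 thus exchanged places, and RELA, which had been below TNFAIP3, stood above it. The order depends on the length used: with the longest annotated transcript, NFKBIA (75.2 RPKM) stood above TNF (69.0 RPKM) in not treated cells and the 2 overlapped, and TNFAIP3 (7.54 RPKM) stood below RELB (8.43 RPKM) after maltonis.

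**Figure D3:**
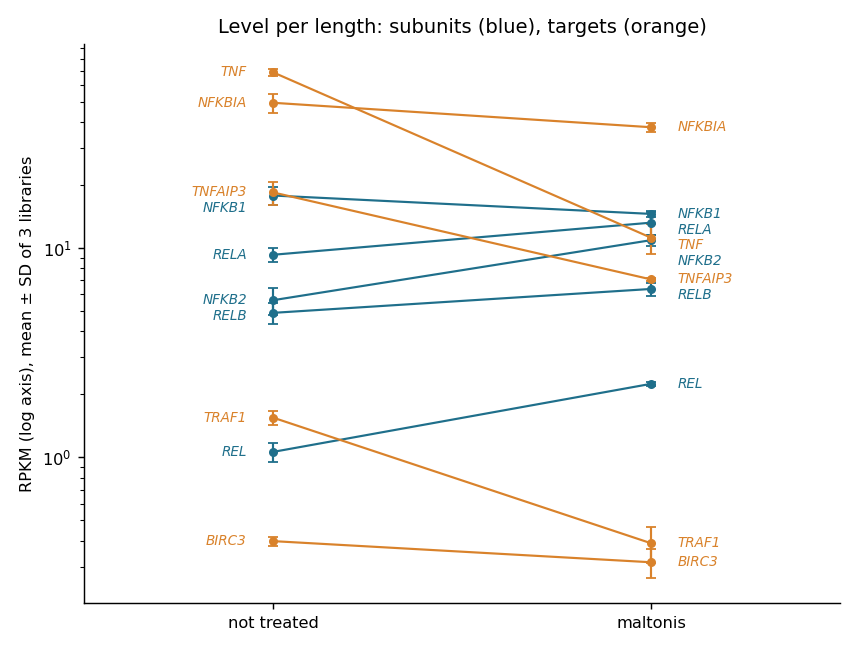
Level per length of the 10 members in RPKM (vertical log axis) in not treated and maltonis-treated cells, as the mean ± SD of 3 libraries, with subunits in blue and feedback targets in orange. TNF goes from the top, at 69.0 RPKM, to 11.2 RPKM among the subunits, and REL crosses TRAF1.

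The summed RPKM of the 5 subunits was 35.6, 41.4 and 38.9 without treatment and 49.9, 45.9 and 46 with maltonis. NFKB1 made up 44.7%, 46.5% and 46.7% of this sum without treatment and 28.0%, 32.1% and 32.4% with it, a decrease of its mean share from 45.99 ± 1.09% to 30.8 ± 2.46% (SD, n = 3). NFKB2 went from 14.5 ± 1.13% to 23.1 ± 0.532%, RELA from 24.0 ± 0.207% to 27.9 ± 2.12% and REL from 2.77 ± 0.440% to 4.75 ± 0.132%. For these 4 subunits the groups did not overlap, and a two-sided exact permutation test gave p = 0.1 for each, the smallest that 3 libraries against 3 allow (0.125 after adjustment over 5 subunits). The share of RELB, 12.8 ± 2.16% and 13.5 ± 0.527%, overlapped between the groups (exact permutation test, p = 0.6). The shares of a library sum to the whole and therefore do not move independently.

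**Figure D4:**
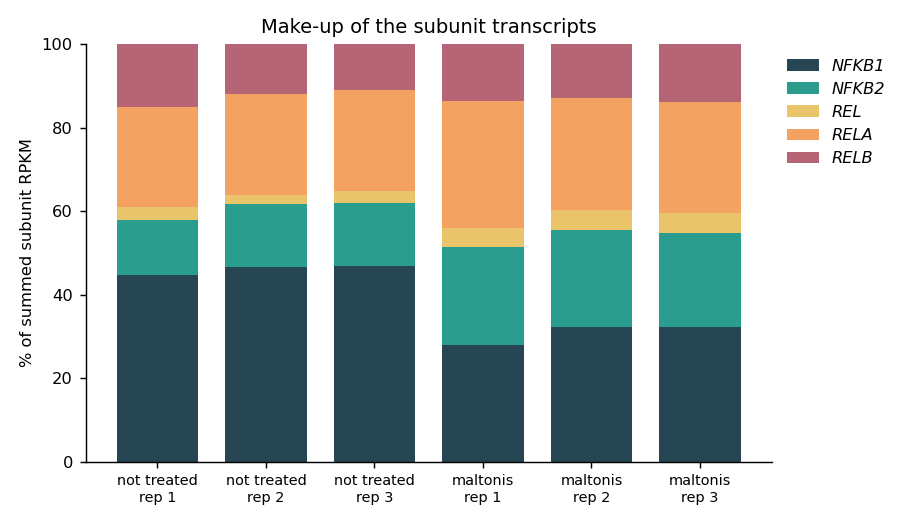
Share of each subunit in the summed RPKM of the 5 subunits (vertical axis, percent), as 1 stacked bar for each of the 6 libraries. The NFKB1 share at the base of the bars is 44.7% to 46.7% in not treated and 28.0% to 32.4% in maltonis-treated cells, and the NFKB2 share above it is larger in all treated libraries.

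Other genes of the pathway were taken from 5 lists with 140 genes in all, of which 121 had enough reads to be tested. Of these, 32 (26.5%) were higher and 39 (32.2%) lower at the same FDR, against 31.9% and 32.1% of all genes. Their median log2 fold change was 0.02. The only list with a median beyond 0.2 in size was that of other NF-kB target genes: 17 of its 34 tested genes were lower and 3 were higher, with a median of −0.57, against 32.1% and 31.9% of all genes. CCL4, a chemokine, had 21, 25 and 41 counts without treatment and 2, 1 and 0 with maltonis, at or under the floor. SDC4, a heparan sulfate proteoglycan, fell from 25.1 ± 1.78 to 1.10 ± 0.197 CPM (SD, n = 3). IER3, an early response gene of cell survival, fell from 13.0 ± 1.74 to 0.877 ± 0.405 CPM. The higher genes were GADD45B, a stress-induced regulator of kinase signaling (log2 fold change 1.05), TNFAIP6 (0.98), a secreted hyaluronan-binding protein, and IRF1 (0.45), a transcription factor of the interferon response. TNFAIP6 was low, with 10, 19 and 16 counts without treatment and 21, 35 and 26 with maltonis. The number of higher genes in this list was 2 with the DESeq2 test and 5 with scaling by total counts. The edgeR adjusted p-values of these 6 genes lay between 3.83e-08 and 0.00257. CXCL1, CXCL3, IL6, VCAM1, SELE, CD69, PTGS2 and MARCKS had too few reads to be tested.

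Among 20 tested receptors and ligands, 7 (35%) were higher and 6 (30%) lower, against 31.9% and 32.1% of all genes. Their median log2 fold change was 0.08. LTB, the lymphotoxin beta ligand, fell from 8.51 ± 0.973 to 1.51 ± 0.571 CPM (SD, n = 3), or by 2.56 on the log2 scale. TNFRSF1B, the second TNF receptor, fell from 45.2 ± 6.19 to 11.3 ± 1.52 CPM. IL18RAP, a subunit of the interleukin-18 receptor, fell from 0.955 to 0.321 CPM. TNFRSF8, also known as CD30, rose from 1.08 ± 0.114 to 8.38 ± 0.448 CPM, or by 2.93 on the log2 scale. TLR3, a receptor for double-stranded RNA, and IL1R1, the signaling interleukin-1 receptor, rose from 0.249 to 0.784 CPM and from 0.475 to 1.296 CPM, all low levels. The edgeR adjusted p-values of these 6 genes lay between 2.45e-07 and 0.00359.

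Of 30 tested adaptors and ubiquitin ligases, 10 (33.3%) were higher and 8 (26.7%) lower, against 31.9% and 32.1% of all genes. TRAF3, which directs the degradation of the kinase of the slower route, fell from 83.7 ± 6.32 to 14.0 ± 0.501 CPM (SD, n = 3). TRAF5, a related adaptor, fell from 13.1 to 4.10 CPM, and IRAK2, an interleukin-1 receptor-associated kinase, from 5.73 to 2.47 CPM. The log2 fold changes of TRAF3, TRAF5 and IRAK2 were −2.58, −1.68 and −1.23. TIRAP, an adaptor of Toll-like receptors, RNF31, the catalytic subunit of the linear ubiquitin ligase, and IRAK4 rose with log2 fold changes of 1.55, 1.26 and 1.08. Their edgeR adjusted p-values, with those of the lower 3, lay between 4.49e-08 and 6.66e-05.

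Of 13 tested genes of kinases and their partners, 3 (23.1%) were higher and 3 (23.1%) lower, against 31.9% and 32.1% of all genes. The median log2 fold change of the 13 was 0.17. IKBKG, TAB1, TAB2 and TAB3 in this list are partner proteins and not kinases. IKBKE, an IkB kinase-related enzyme of the interferon pathway, fell from 117 ± 10.4 to 45.2 ± 4.04 CPM (SD, n = 3; log2 fold change −1.37, edgeR adjusted p = 1.87e-06). MAP3K3 and IKBKB, the classical IkB kinase, fell with log2 fold changes of −0.32 and −0.28. TBK1, a kinase related to IKBKE, TAB3, an adaptor of the kinase MAP3K7, and CHUK, the IkB kinase of the slower route, rose by 0.60, 0.54 and 0.25 on the log2 scale (edgeR adjusted p from 8.47e-05 to 0.00598 for these 5 genes). With scaling by total counts, 5 genes of this list were higher and 1 was lower. When not treated replicate 2, not treated replicate 3 or maltonis replicate 2 was left out, 1 was higher.

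Of 24 tested inhibitors of the pathway, 9 (37.5%) were higher and 5 (20.8%) lower, against 31.9% and 32.1% of all genes. PDLIM2 and COMMD1, which promote the ubiquitination of RELA, fell from 7.13 ± 0.323 to 1.21 ± 0.155 CPM and from 45.3 ± 4.03 to 9.94 ± 0.971 CPM (SD, n = 3). SIGIRR, an inhibitory receptor of the interleukin-1 family, fell with a log2 fold change of −1.29. NFKBIL1, an IkB-like gene, rose from 17.8 ± 2.51 to 53.9 ± 6.05 CPM. NFKBIL1 overlaps ATP6V1G2 on the opposite strand, so the split of their reads is uncertain. USP18, an interferon-induced protease, and NFKBID, a nuclear IkB protein, rose by 1.51 and 1.16 on the log2 scale. The edgeR adjusted p-values of these 6 genes lay between 3.01e-07 and 0.000187.

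**Figure D5:**
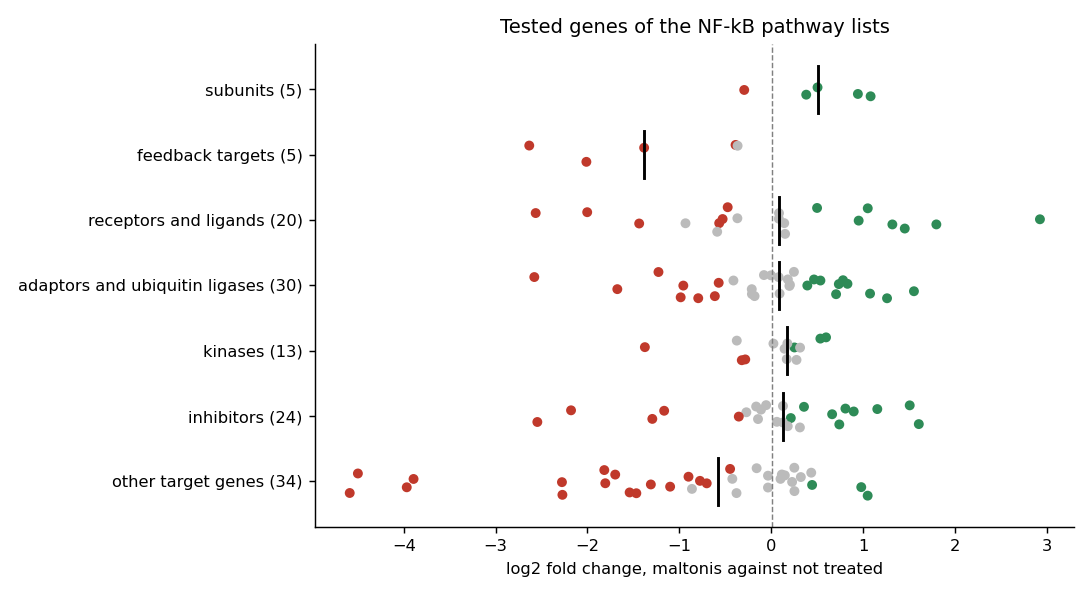
Log2 fold change, maltonis against not treated (horizontal axis), of the tested genes in each list, with the number tested in parentheses. Points are genes, green where higher and red where lower at an FDR under 0.01 and grey where neither, black bars are the median of each list, and the dashed line is the median of all genes (0.01). The bars of the feedback targets (−1.38) and of the other target genes (−0.57) lie left of the dashed line and that of the subunits (0.51) lies right of it.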

How the data were processed

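The deposited values are HTSeq counts of reads per gene symbol, 1 table per library, which the authors made from stranded total RNA libraries. The submitters’ processing notes name TopHat, Bowtie2, HTSeq and hg19, while the annotation and the strand setting are not given in the sources used here. The analysis used edgeR 4.0.16 (R 4.3.3), with TMM scaling, filterByExpr, a quasi-likelihood test without covariates and Benjamini-Hochberg adjustment over 13209 genes. Standard errors come from the quasi-likelihood F statistic. CPM use TMM-scaled totals, and differences within a file code use log2 CPM with a prior count of 2. RPKM use the summed exon length in GENCODE version 29, found for 21737 of 23368 symbols, which lowers the level of genes with many transcripts. That annotation and the promoter table are of GRCh38, so coordinates are theirs and not those of the files. Replicates differed by more than sampling noise (chi-square per degree of freedom 4.16 to 33.1). Between replicates 2 and 3, which share a file code, the value was 10.8 without treatment and 4.16 with maltonis. Between replicate 1 and either of them it was 12.97 to 33.1. The labels do not say that the replicates are separate cultures, so p-values measure the spread between these libraries, while the paper calls them biological replicates.

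The members, the lists and the rule for named genes were chosen with earlier results of these data known. Named pathway genes are the 3 highest and 3 lowest called log2 fold changes of each list whose groups did not overlap, and list medians carry no test. As alternatives, libraries were scaled by total counts, by the upper quartile or by DESeq2 size factors, and tested with DESeq2 1.42.0 or by likelihood ratio. Others concerned the filter, the replicate block, the file code, each library left out, the threshold and the length. The fit was first tested on simulated counts. Shares were tested with scipy 1.17.1.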

Additional observations from a re-analysis of the deposited data

How the results depend on the processing

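Over 17 alternatives per member, one of them (replicate 1 alone, 1 against 1 and without a test) chosen after seeing the data, no member changed direction. The count of 5 lower members was 3 with scaling by total counts and 3 with upper quartile scaling, where NFKB1 and NFKBIA lost their calls, and between 3 and 5 when each library was left out in turn. It was 3 without not treated replicate 2. The count of 4 higher members lay between 3 and 4 and that of the members past 2.5-fold between 2 and 3 without single libraries, and the latter was 2 with scaling by total counts or the upper quartile. The median log2 fold change of all genes shifted by 0.119 under total-count scaling, so that the values of NFKB1 (−0.17) and NFKBIA (−0.27) there are to be read against that shift. NFKB1 lost its call in 8 of the 17, RELB in 6 and NFKBIA in 3. TNF, TRAF1, TNFAIP3, REL, NFKB2 and RELA stayed past the threshold under all alternatives that gave a test. With the length of the longest transcript, 2 in place of 4 neighbours in the order of levels overlapped after maltonis, and the differences of the subunit shares kept their sign.

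The replicate block, from the shared replicate numbers of the labels, gave 4 higher and 5 lower members, as without it, and 4602 higher and 4620 lower genes in place of 4213 and 4239. Deviations from the group means correlated at 0.301, 0.0852 and 0.161 between same-numbered libraries, and replicate 2 of each group correlated better with replicate 3 of the other (0.123 and 0.139), so the numbers were not taken to pair the libraries. BIRC3 had 53 to 111 counts per library, and what its missing call rests on was not tested.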

Other observations

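TNF lies in a cluster of immune genes on chromosome 6 (GRCh38, chr6:31575567-31578336, plus strand), and its neighbours were looked at after the values of TNF, LTB and NFKBIL1 had been seen. Within 50 kb on either side, 15 genes of the files are annotated and 11 were tested. On the side of LTB, the neighbours LTB, LST1, NCR3 and AIF1 were lower after maltonis, with log2 fold changes of −2.56, −1.32, −1.82 and −1.33, beside −2.63 for TNF. LST1 and AIF1 are myeloid genes of small regulatory proteins, and AIF1 fell from 198 ± 4.05 to 78.8 ± 2.85 CPM (SD, n = 3). On the other side, NFKBIL1, ATP6V1G2 and DDX39B were higher, at 1.61, 1.08 and 1.95. ATP6V1G2 and DDX39B were low, with 18 to 67 and 12 to 82 counts per library. LTA, which ends 1243 bases before TNF begins, had between 5 and 18 counts per library and a log2 fold change of −0.37 (edgeR adjusted p = 0.314). PRRC2A, at the far end, stood at 586 ± 54.4 and 612 ± 126 CPM (SD, n = 3; edgeR adjusted p = 0.691). SNORA38, also on the side of LTB, had a log2 fold change of −0.12 (edgeR adjusted p = 0.664). The edgeR adjusted p-values of the 8 called genes, TNF among them, lay between 1.55e-07 and 0.00589. These 8 of 11 tested genes stand beside 31.9% higher and 32.1% lower over all genes tested, so such calls are common. DDX39B and ATP6V1G2 share a readthrough gene, and LST1 and NCR3 overlap at their ends. NFKBIL1, which begins at base 31546870, overlaps ATP6V1G2, which reaches base 31548427 on the opposite strand. The split of the reads of all these genes is therefore uncertain.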
